A study of Mus musculus with 12 samples.

Results

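The Nlrp genes of the mouse oocyte form a family of NACHT and leucine-rich-repeat proteins. It was followed here through Nlrp4a, Nlrp4b, Nlrp4c, Nlrp4e, Nlrp4f, Nlrp5, Nlrp9a, Nlrp9b, Nlrp9c and Nlrp14. A probe was taken as a member where its gene name was one of these or the older Nalp form, or where its RefSeq accession mapped to one of them. This gave 9 of the 10 genes, of 21307 named genes on the array, through 12 of its 41174 non-control probes. Nlrp4e had no probe by this rule. The sources were 12 single blastomeres, the 2 cells of each of 6 embryos of CF-1 mice, conceived by natural mating and flushed from the oviduct at the 2-cell stage about 36 h post coitus. Experiment 2 held the embryos named pairs D, G and H, and experiment 1 held pairs D, I and L. All embryos were of the same strain, the labels name no treatment, and the zona was slit so that each cell could be pressed out. Cells are numbered 2 and 1 within an embryo in the labels, which give no meaning to the numbers, and cells of an embryo are not independent samples of an experiment.

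NLRP proteins are best known from immune cells, where relatives such as NLRP3 assemble inflammasomes. The oocyte members are transcribed as the egg grows, and their messages are stored for the first cleavages, before and around the time the embryonic genome becomes active. NLRP5, also called MATER, is a core protein of the subcortical maternal complex, and embryos of mothers that lack it stop at the 2-cell stage. NLRP14 is needed from the mother for early cleavage, and NLRP4F and NLRP2 have been found with the same complex. The Nlrp4 and Nlrp9 genes are close copies in tandem or dispersed clusters. Probe sequences were not used here, so a share of the signal of one copy may come from another.

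In RefSeq on GRCm38.p6 all 10 genes are protein coding. Nlrp4f lies on chromosome 13 (chr13:65177111-65205716), and the others lie on chromosome 7. Nlrp9c (chr7:26364691-26403700), Nlrp4a (chr7:26435113-26476142) and Nlrp9a (chr7:26535023-26574148) follow each other, as do Nlrp4e (chr7:23301192-23362277) and Nlrp5 (chr7:23385889-23441923). Nlrp4c (chr7:6045161-6105149), Nlrp4b (chr7:10687793-10730168) and Nlrp9b (chr7:19991393-20062942) stand apart from these groups, and Nlrp14 is far along the chromosome (chr7:107113455-107198103).

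Promoter windows from RefSeq, 250 bases before to 50 bases after a transcript start, were found for 9 of the 10 genes, 12 windows in all. They are shown for Nlrp4a, Nlrp4b and Nlrp4c because their starts are alike, and for Nlrp4f because its levels followed those of Nlrp4a most closely. The windows are the inner start of Nlrp4a (chr7:26435364-26435663, plus strand), Nlrp4b (chr7:10687543-10687842, plus strand), Nlrp4c (chr7:6044911-6045210, plus strand) and Nlrp4f (chr13:65205667-65205966, minus strand). Capitals mark the E-box letters CANNTG, which read the same on both strands.
Nlrp4a: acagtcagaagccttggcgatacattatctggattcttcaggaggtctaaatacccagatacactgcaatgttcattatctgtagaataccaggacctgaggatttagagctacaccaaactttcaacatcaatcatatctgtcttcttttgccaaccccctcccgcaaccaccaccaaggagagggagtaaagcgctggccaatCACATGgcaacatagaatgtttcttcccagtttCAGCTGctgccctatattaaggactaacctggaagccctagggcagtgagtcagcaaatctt
Nlrp4b: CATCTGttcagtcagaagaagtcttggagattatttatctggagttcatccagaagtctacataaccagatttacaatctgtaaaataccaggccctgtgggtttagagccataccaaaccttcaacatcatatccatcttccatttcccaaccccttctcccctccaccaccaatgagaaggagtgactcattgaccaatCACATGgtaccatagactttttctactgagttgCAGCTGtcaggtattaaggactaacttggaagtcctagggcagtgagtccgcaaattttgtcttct
Nlrp4c: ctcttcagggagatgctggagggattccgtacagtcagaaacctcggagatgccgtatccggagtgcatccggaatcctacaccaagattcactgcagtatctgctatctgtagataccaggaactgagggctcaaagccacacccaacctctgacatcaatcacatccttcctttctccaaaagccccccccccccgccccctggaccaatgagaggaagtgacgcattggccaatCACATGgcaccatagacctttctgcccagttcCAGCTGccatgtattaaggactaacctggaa
Nlrp4f: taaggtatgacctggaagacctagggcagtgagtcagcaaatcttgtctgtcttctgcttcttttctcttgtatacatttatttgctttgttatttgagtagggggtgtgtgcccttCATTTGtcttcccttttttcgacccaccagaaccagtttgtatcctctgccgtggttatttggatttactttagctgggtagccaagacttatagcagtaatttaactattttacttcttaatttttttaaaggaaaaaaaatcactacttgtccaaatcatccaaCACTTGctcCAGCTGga

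The E-box is the motif bound by FIGLA with its partner TCF3 in the promoters of zona pellucida genes. All 12 windows held at least 1 E-box, as did 72.3% of the 32851 windows of all genes. The windows of Nlrp4a and Nlrp4b were 70.8% identical over their alignment, and both held CACATG followed by CAGCTG 33 bases further on. Nlrp4c had the same pair 32 bases apart and was 62.4% identical to Nlrp4b. In these windows CACATG sat inside the run CCAATCACATGG, which 7 of all windows held on either strand, 4 of them at Nlrp4a, Nlrp4b and Nlrp4c. A second run of 14 bases, TATTAAGGACTAAC, lay just after the start of Nlrp4a and was held by 4 windows of the genome set, all of them at these genes. Nlrp4f was different: its window shared a 26-base run with Nlrp4a, CCTAGGGCAGTGAGTCAGCAAATCTT, which began 24 bases after the Nlrp4a start but 231 bases before the annotated Nlrp4f start. Nlrp9a and Nlrp9c were 70.3% identical to each other. The letters TAATTG, bound by NOBOX, were found in 2 of the 12 windows, those of Nlrp9a and Nlrp9b, and in 8.0% of all windows searched on both strands. These matches describe the letters in the windows and do not show that a factor binds there.

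Each level is given on a log2 scale relative to the 75th percentile of its array, so that 0 is the level of a bright probe. Signals under a common floor of -4.12 were set to it, and a difference that involves the floor understates the change. Levels of different probes were not set against each other. A probe was tested where it was well above background on at least 6 arrays, which left 16694 probes, among them 9 probes of 7 members. Calls are limma's with a Benjamini-Hochberg adjusted p under 0.05 over all 16694. Detection ran from 31.2 to 78.8% of spots per array in experiment 2 and from 22.1 to 41.7% in experiment 1. Experiment coincided with the dye, the scan and the slides, which cannot be told apart. Summed signals of oocyte markers, in units of the array's 75th percentile, were 54.9 to 78.2 in cells of experiment 2 and 48.3 to 89.1 in cells of experiment 1, with 8 to 9 and 7 to 9 of 9 genes well above background. Summed signals of some other markers differed more. The 7 stroma genes summed to 0.0710 to 0.726 in experiment 2 and 10.9 to 66.3 in experiment 1. For 9 oviduct epithelium genes the sums were 0.151 to 1.59 and 7.30 to 52.9, and for 7 macrophage genes 0.0171 to 0.413 and 4.36 to 226.0. Well above background were 4 to 7 and 7 stroma genes, 3 to 9 and 7 to 8 oviduct genes, and 1 to 7 and 2 to 7 macrophage genes. Of the tested genes, limma called 7 of 7 stroma, 4 of 8 oviduct and 1 of 4 macrophage genes, Lyz2, lower in experiment 2. The share of all probes called lower was 4.15%. The 10 cumulus and granulosa genes summed to 0.0875 to 1.28 and 0.0587 to 0.866, with 2 to 8 and 0 to 5 well above background. Cyp19a1 was so on 11 arrays and Ptx3 on 8, but Tnfaip6 and Fshr on 0. The 3 red blood cell genes on the array summed to 0.0107 to 0.190 and 0.0720 to 1.02. The part of these in the differences between experiments was not tested.

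Messages of the family were found in every cell. Nlrp4a, Nlrp4f, Nlrp9a, Nlrp9c and Nlrp14 had a probe well above background on all 12 arrays, Nlrp4b on 11 and Nlrp4c on 10. Nlrp5 was well above background on 4 arrays, 3 of experiment 2 and 1 of experiment 1, and its probe lay at the floor in 11 cells. Nlrp9b was so on 3 arrays of experiment 2 and on 0 arrays of experiment 1, with the floor value in all 12 cells. Neither could be tested. The second Nlrp9c probe was not well above background on any array, unlike the first, so the probes of this gene disagree. On the 6 arrays of experiment 1 that also had a Cy3 scan, 0 of the 12 member spots were well above background in Cy3, against 6 to 9 of 12 in Cy5, the channel used.

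**Figure D1:**
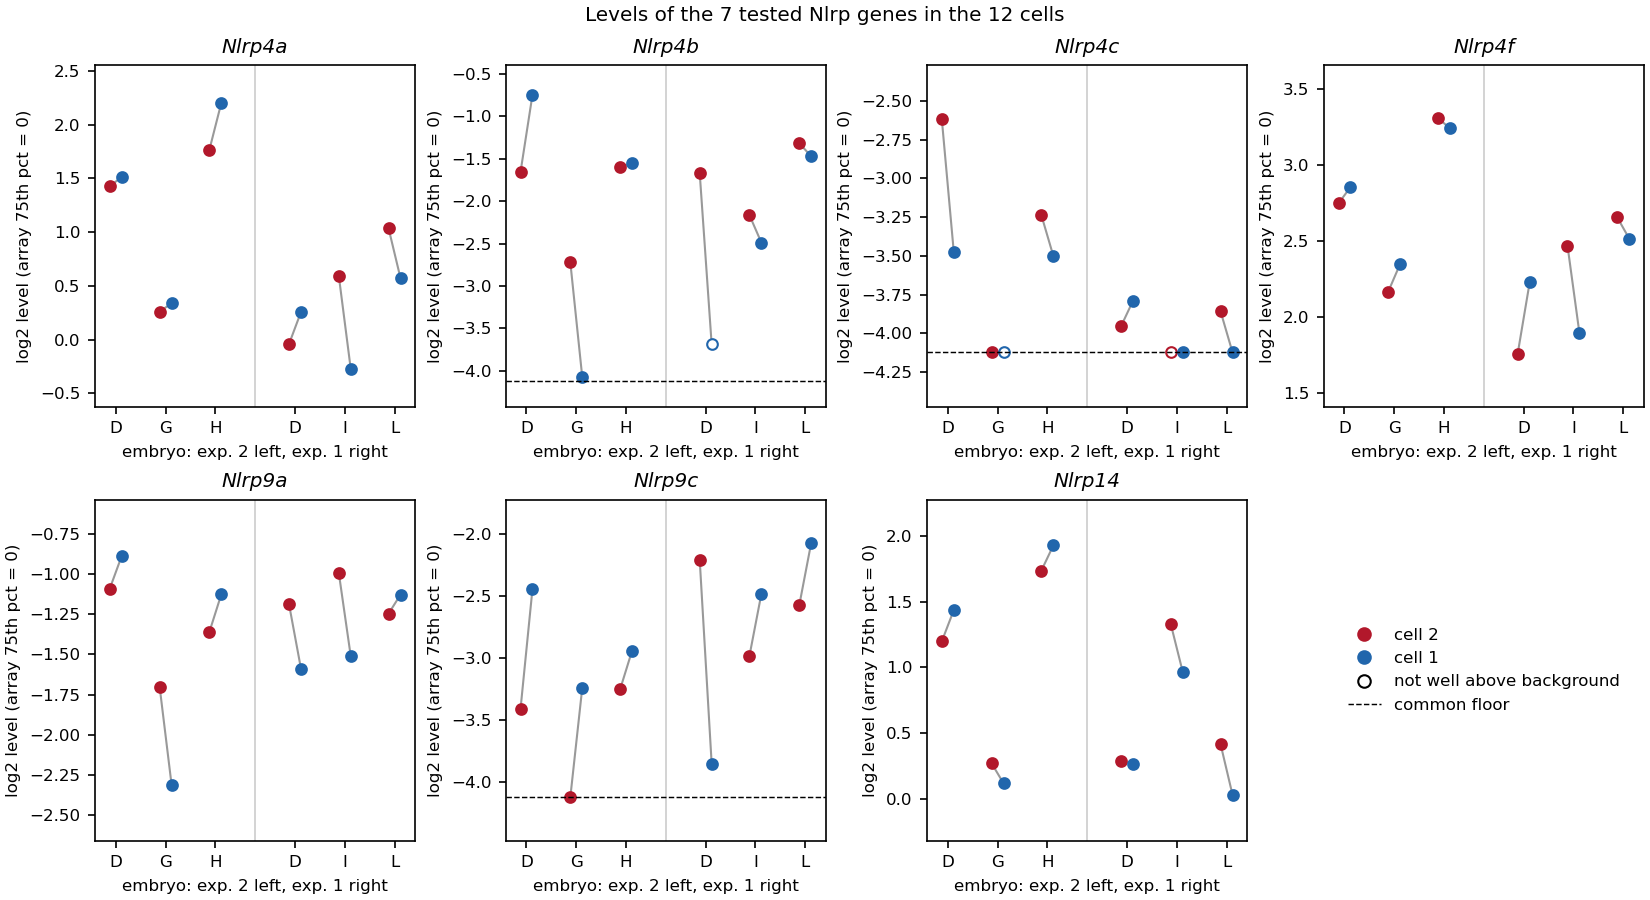
Levels of the 7 tested Nlrp genes in the 12 cells, in log2 units relative to the array's 75th percentile, with 1 panel for each gene, the embryos of experiment 2 on the left and those of experiment 1 on the right. Points are single cells, grey lines join the cells of an embryo, open points were not well above background, and the dashed line is the common floor of -4.12; both cells of pair G lie below both cells of pair H for every gene but Nlrp9c.

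Nlrp14, the maternal gene required for early cleavage, separated the embryos. In experiment 2 its level was 1.74 and 1.93 in cells 2 and 1 of pair H, 1.20 and 1.44 in pair D, and 0.27 and 0.12 in pair G. In experiment 1 it was 1.33 and 0.97 in cells 2 and 1 of pair I, 0.28 and 0.27 in pair D, and 0.42 and 0.03 in pair L. Pair I thus stood above both other embryos of experiment 1 and pairs H and D above pair G in experiment 2, with no overlap between these pairs of cells, while pairs D and L of experiment 1 overlapped. Between embryos of the same experiment Nlrp14 was called (limma adjusted p = 0.0456). It was 1 of 7 tested members called, beside 1.4% of all tested probes. At an unadjusted p under 0.05 there were 4 of 7 members and 4983 of all probes.

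The embryo means of Nlrp14 in experiment 2 ran from 1.83 ± 0.13 in pair H over 1.32 ± 0.17 in pair D to 0.19 ± 0.11 in pair G (SD, n = 2 cells each). Pair H exceeded pair G by 1.64 ± 0.21 (SE), a 3.11-fold difference, and pair D exceeded pair G 2.18-fold. Pair H exceeded pair D by 0.52 ± 0.21 (SE), or 1.43-fold. In experiment 1 the mean of pair I was 1.15 ± 0.26, above 0.28 ± 0.01 in pair D and 0.22 ± 0.27 in pair L (SD, n = 2 each). Pair I was 1.83-fold above pair D and 1.90-fold above pair L, and pairs L and D differed by -0.05 ± 0.21 (SE). With experiment 2 alone the limma adjusted p of Nlrp14 was 0.0443, and with experiment 1 alone it was 0.427. Pairs H and G shared a slide, as did pairs I and L of experiment 1, and within these slides its limma adjusted p was 0.0914 beside 0.0839% of all probes called. Over 25 other settings Nlrp14 was called in 10, with adjusted p from 0.00464 to 0.427. The call was lost without either cell of pair H (0.131 without cell 2 and 0.128 without cell 1), cell 1 of pair D of experiment 2 (0.0614), or any cell of pairs I and D of experiment 1 (0.0558 to 0.0773). The 0.0558 belongs to cell 1 of pair I, whose array was read with a protocol of its own, per the file headers.

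Nlrp4a and Nlrp4f were the members most like each other across cells. Nlrp4a read 1.77 and 2.20 in cells 2 and 1 of pair H, 1.43 and 1.51 in pair D, and 0.26 and 0.34 in pair G of experiment 2. In experiment 1 it read 0.59 and -0.27 in pair I, -0.04 and 0.26 in pair D, and 1.03 and 0.57 in pair L. Pair G was the low embryo of experiment 2 and pair L the high one of experiment 1, where the cells of pair I overlapped both other embryos. Nlrp4a missed the threshold between embryos over both experiments (limma adjusted p = 0.0817) and passed it in experiment 2 alone (0.0488). Pair H exceeded pair G by 1.69 ± 0.32 (SE), or 3.22-fold. Its second probe, well above background on 11 arrays, had an H minus G difference of 1.59 ± 0.38 (SE), and the probes correlated at r = 0.89 over the 12 cells after centring within experiments. Cells of an embryo share that embryo and a slide, so this r describes the 12 cells and is not a test.

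Nlrp4f, whose protein associates with the subcortical maternal complex, read 3.31 and 3.24 in cells 2 and 1 of pair H, 2.75 and 2.86 in pair D, and 2.17 and 2.35 in pair G. In experiment 1 it read 2.47 and 1.89 in pair I, 1.76 and 2.23 in pair D, and 2.66 and 2.52 in pair L. All 3 embryos of experiment 2 were apart, in the order H, D and G, while in experiment 1 pairs I and D overlapped below pair L. The limma adjusted p of Nlrp4f was 0.112 over both experiments and 0.0488 in experiment 2 alone. Pair H exceeded pair G by 1.02 ± 0.24 (SE), a 2.03-fold difference. Its correlation with Nlrp4a was r = 0.94 (Spearman's rho 0.92) over the 12 centred cells. In experiment 2 alone 3 of 7 members were called, Nlrp14, Nlrp4a and Nlrp4f, beside 4.7% of all probes. In experiment 1 alone 0 members and 0% of all probes were called by limma, and at an unadjusted p under 0.05 there were 1 of 7 members, Nlrp14, and 1515 probes. Whether the embryo differences themselves differ between the experiments was not tested.

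Nlrp4b and Nlrp4c, the other tested copies of the Nlrp4 group, reached the floor or lay near it in some cells. Nlrp4b read -1.60 and -1.55 in cells 2 and 1 of pair H, -1.66 and -0.75 in pair D, and -2.72 and -4.07 in pair G of experiment 2. In experiment 1 it read -2.17 and -2.49 in pair I, -1.67 and -3.69 in pair D, and -1.32 and -1.47 in pair L. The lowest cell of each experiment, cell 1 of pair G and cell 1 of pair D, was more than 1 log2 unit below its twin, and cell 1 of pair D in experiment 1 was the array where the probe was not well above background. Nlrp4b did not pass between embryos (limma adjusted p = 0.175), and pair D exceeded pair G of experiment 2 by 2.19 ± 0.69 (SE). Without cell 1 of pair G this difference was 1.52 (limma adjusted p between embryos 0.376). The second probe of Nlrp4b gave a smaller D minus G difference, 0.56 ± 0.46 (SE), or 1.47-fold against 4.58-fold with the first, and its cell 1 of pair G lay at the floor. This probe, well above background on 10 arrays, ranged from -4.12 to -2.34 in experiment 2 and from -4.12 to -3.44 in experiment 1, and followed the first at r = 0.68 over the 12 centred cells. Nlrp4c ranged from -4.12 to -2.62 in experiment 2 and from -4.12 to -3.79 in experiment 1, and 5 cells lay at the floor, among them both cells of pair G and both of pair I. Its limma adjusted p between embryos was 0.159, and 0.0175 with each array scaled over all of its probes.

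Of the Nlrp9 copies, Nlrp9a could be followed in every cell. It read -1.36 and -1.13 in cells 2 and 1 of pair H, -1.09 and -0.89 in pair D, and -1.70 and -2.31 in pair G of experiment 2. In experiment 1 it read -0.99 and -1.51 in pair I, -1.19 and -1.59 in pair D, and -1.25 and -1.13 in pair L. Pair G was again lowest in experiment 2, and the 3 embryos of experiment 1 overlapped. Neither Nlrp9a nor Nlrp9c passed between embryos (limma adjusted p = 0.177 and 0.688). Nlrp9c ranged from -4.12 to -2.44 in experiment 2 and from -3.85 to -2.07 in experiment 1, and its twins were 1.64 apart in pair D of experiment 1.

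**Figure D2:**
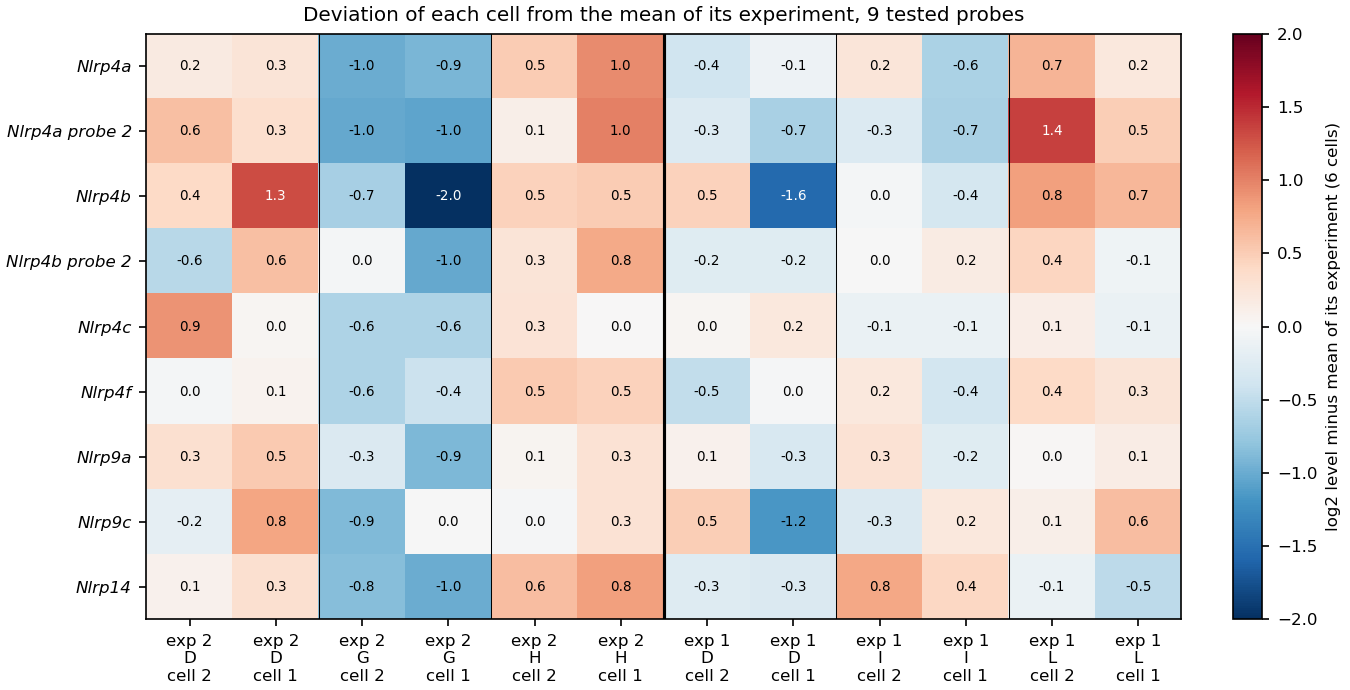
Deviation of each of the 12 cells from the mean of its experiment, in log2 units, for the 9 tested probes of 7 Nlrp genes; experiment 2 is left of the thick line and experiment 1 right of it, and colours saturate at 2 units. In experiment 2 the columns of pair G are at or below the mean for every probe and those of pair H above it for every probe but Nlrp9c in cell 2, while experiment 1 shows no embryo that is low or high for every gene.

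In experiment 2 pair G lay below pairs H and D for most members, while pairs H and D had no common order. Both cells of pair H were above both cells of pair G for 6 of the 7 tested members, beside 10.6% of all tested probes, and the exception was Nlrp9c. The median H minus G difference was 1.02 over the 7 members and -0.12 over all tested probes. By the same probes, both cells of pair D were also above both cells of pair G for every tested member but Nlrp9c. The share of all probes with that order was not computed, so this count is not read as particular to the members. The D minus G medians were 1.08 over the members and 0.46 over all tested probes, and the H minus D medians -0.17 and -0.53. The mean of pair H was above that of pair D for 3 of 7 members, Nlrp4a, Nlrp4f and Nlrp14, and the H minus D difference was -0.17 for Nlrp9c, -0.25 for Nlrp9a, -0.32 for Nlrp4c and -0.37 for Nlrp4b. Pairs H and G lay on the same slide, and detection was 37.5 and 46.7% of spots in cells 2 and 1 of pair H, against 52.8 and 31.2% in pair G. Pair D lay on another slide, with detection of 64.3 and 78.8% in its cells 2 and 1. Its differences from pairs G and H cannot be told apart from the slide, and the part of detection in them was not tested. Under 8 of 9 other scalings, floors, filters or sources of values the H over G count was again 6 of 7. It was 4 of 5 among members well above background on all 12 arrays, beside 20.8% of all probes that passed this filter. The all-probe share was 18.1% with scaling over all probes and 4.40% with no filter on dim probes, the lowest of these settings. The member median of H minus G ranged from 1.02 to 1.85 over these settings and the median of all probes from -0.76 to 0.02. The members share much of their sequence, so they are not independent counts of these orderings above pair G.

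Twins were close for most members. The root-mean-square difference between cells of an embryo was 0.26 log2 units for Nlrp14, 0.32 for Nlrp4f, 0.39 for Nlrp4c, 0.39 for Nlrp9a and 0.46 for Nlrp4a, against a median of 0.66 over all tested probes. It was 0.91 for Nlrp9c and 1.07 for Nlrp4b, so 5 of 7 members lay below that median. Close twins were not particular to the family. The median was 0.39 over the 7 members, 0.45 over 14 stored maternal messages outside the family and 0.50 over 2 oocyte transcription factors. Over 6 partners of the subcortical maternal complex it was 0.77. Cells of different embryos of the same experiment differed by 1.00 for Nlrp14, which is 3.90 times its twin difference. The ratio was 2.19 for Nlrp4a, 1.97 for Nlrp4f and 0.92 for Nlrp9c, with a median of 1.25 over all tested probes. Values at the floor lower both measures for Nlrp4c.

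**Figure D3:**
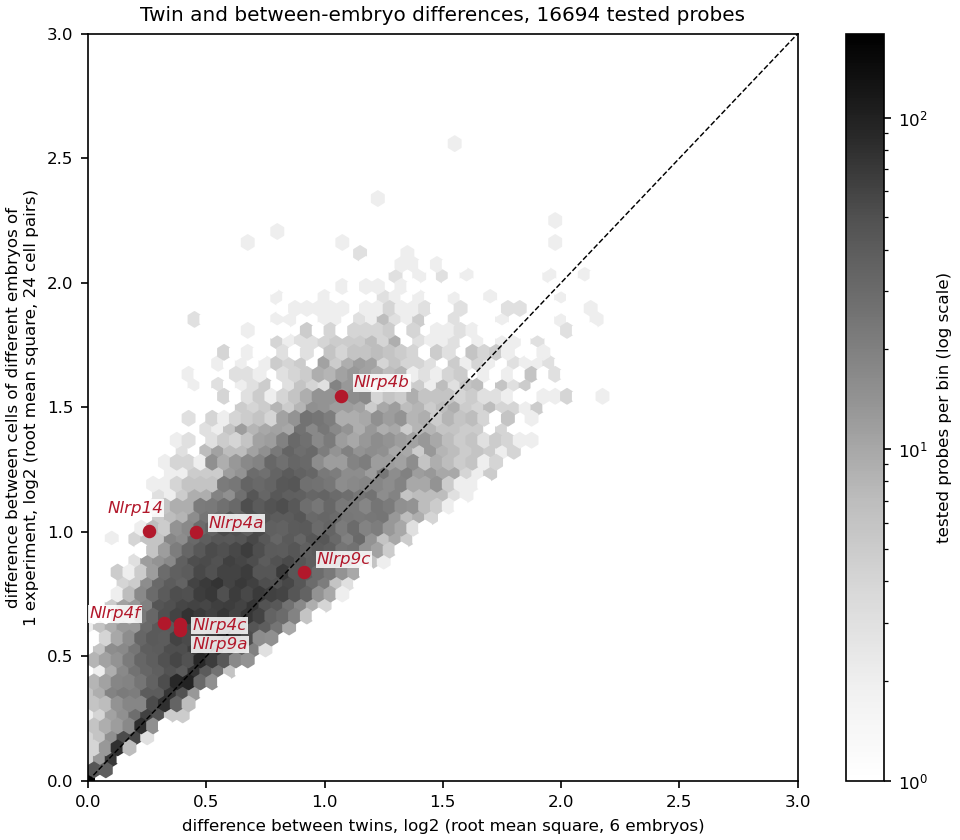
Root-mean-square log2 difference between cells of different embryos of 1 experiment (vertical) against that between twins (horizontal) for all 16694 tested probes (grey, darker with more probes on a log scale) and the 7 Nlrp genes (red); the dashed line marks equality. Nlrp14 stands at 0.26 and 1.00 near the left edge of the cloud, and Nlrp9c lies just below the line.

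Cell number made no difference that limma called. For cell 2 against cell 1, 0 of 7 members and 0% of all probes passed, and at an unadjusted p under 0.05 there were 0 members and 737 probes. The smallest adjusted p among the members was 0.683, for Nlrp4c. The differences ran from -0.25 ± 0.35 for Nlrp9c to 0.48 ± 0.38 for Nlrp4b (SE), with 0.08 ± 0.12 for Nlrp14, higher in cell 2 in 4 of 6 embryos. No member had cell 2 on the same side of cell 1 in all 6 embryos (0 of 7, beside 1.13% of all probes). With each array scaled over all of its probes the Nlrp14 difference was -0.42. For the change of this contrast between experiments limma called 0 of 7 members and 0% of probes, with 0 members and 879 probes at an unadjusted p under 0.05.

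Between experiments the members overlapped. Nlrp4a averaged 1.25 ± 0.79 in experiment 2 and 0.36 ± 0.47 in experiment 1, Nlrp4f 2.78 ± 0.46 and 2.25 ± 0.36, and Nlrp14 1.11 ± 0.76 and 0.55 ± 0.49 (SD, n = 6 cells each). Their differences, 0.89 ± 0.39, 0.53 ± 0.26 and 0.57 ± 0.36 (SE), did not pass (limma adjusted p = 0.224, 0.313 and 0.445). Of the 7 tested members 0 were called by limma, beside 8.1% of all probes (3.95% higher and 4.15% lower in experiment 2), and 1, Nlrp4a, had an unadjusted p under 0.05, as did 3204 probes. The cells of the experiments overlapped for all 7, while 7.66% of all tested probes showed no overlap. The median difference was 0.48 over the members, with 5 of 7 higher in experiment 2, and 0.19 over all tested probes. Of the 5, Nlrp4b and Nlrp4c turned negative with normexp background correction, at -0.17 and -0.52.

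A probe outside the rule carries a description that names a predicted Nalp4e, the gene of the family without a probe. It was well above background on all 12 arrays and ranged from -1.27 to -0.0272 in experiment 2 and from -0.0042 to 1.53 in experiment 1. No cell of experiment 2 reached the lowest of experiment 1, a difference of -1.0 ± 0.33 (SE) that did not pass (limma adjusted p = 0.0966). Pair G was again the low embryo of experiment 2, at -1.0 ± 0.38, against -0.10 ± 0.01 in pair H and -0.13 ± 0.15 in pair D (SD, n = 2 each). It followed Nlrp4f at r = 0.88 and Nlrp4a at r = 0.87 over the 12 centred cells.

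The proteins that NLRP5 works with in the subcortical maternal complex were set beside the family. All 6 of their genes on the list were tested, and limma called 2 of them lower in experiment 2, beside the 4.15% of all probes called lower. Tle6, a core subunit, averaged 0.92 ± 0.45 in experiment 2 and 2.07 ± 0.23 in experiment 1, 2.22-fold lower (limma adjusted p = 0.0265). Khdc3, also called FILIA, averaged -3.24 ± 0.61 and -0.71 ± 1.17 (SD, n = 6 each) and was 5.78-fold lower (limma adjusted p = 0.0209). Padi6, the lattice protein, differed by -1.04 ± 0.31 (SE; limma adjusted p = 0.0661). Ooep, another core subunit, Zbed3 and Nlrp2 did not pass, with differences of 0.39 ± 0.37, -0.79 ± 0.48 and -0.79 ± 0.60 (SE). The list's median difference was -0.92, against 0.48 over the 7 Nlrp members. In pair H minus pair G, Ooep stood at 1.45 ± 0.37 and Zbed3 at 1.24 ± 0.62, while Tle6 stood at -0.20 ± 0.40 (SE), and the median of the 6 was 0.25.

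**Figure D4:**
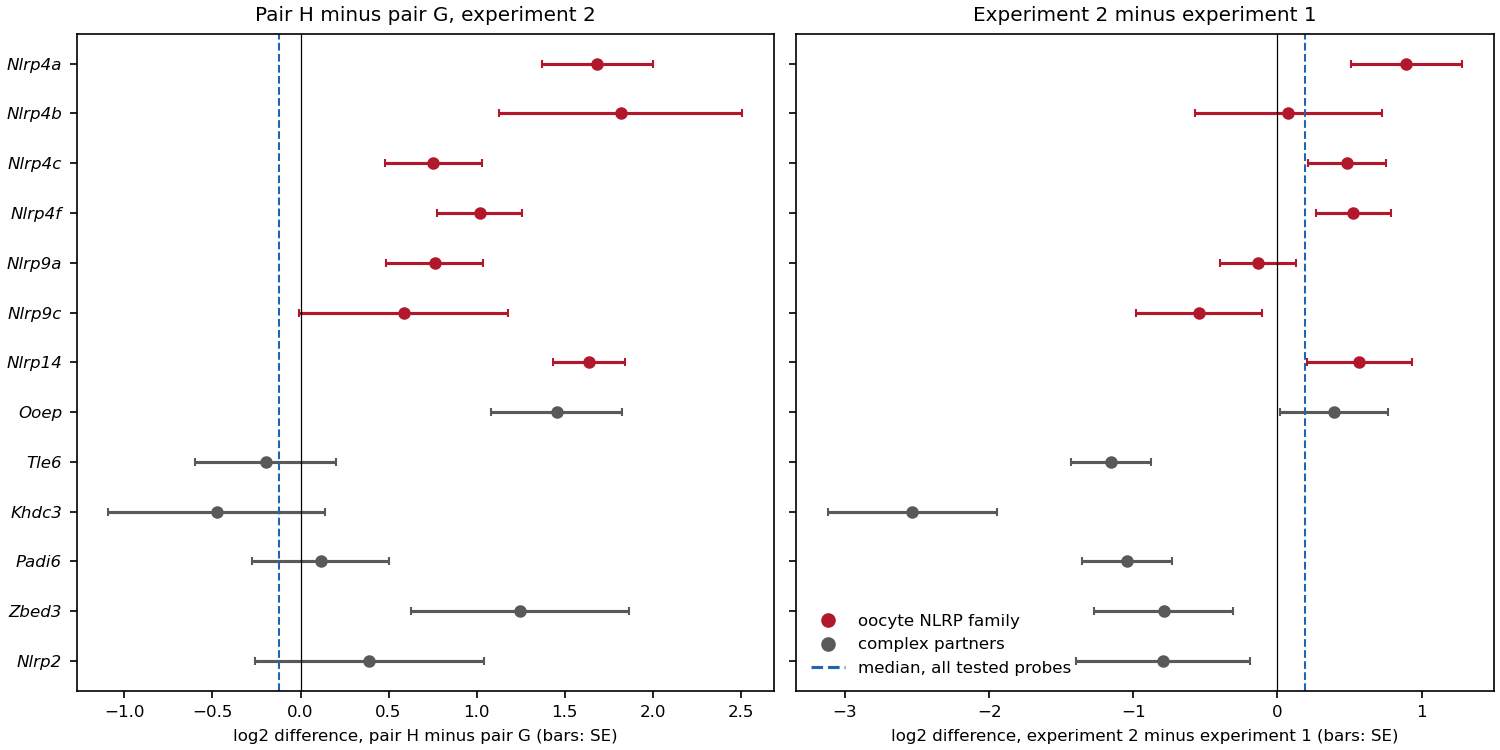
Log2 differences of the 7 tested Nlrp genes (red) and 6 partner genes of the subcortical maternal complex (grey) between pairs H and G of experiment 2 (left panel) and between experiments 2 and 1 (right panel), with bars of 1 SE and the median of all tested probes dashed. The Nlrp genes lie between 0.59 and 1.82 on the left, and on the right Khdc3 and Tle6 lie lowest at -2.53 and -1.15.

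Stored maternal messages outside the family gave a wider comparison. Of 15 such genes on the array 14 were tested, 0 were called between embryos and 2 were lower in experiment 2, namely Zar1, an RNA-binding regulator, 2.69-fold and Ybx2, the germ-cell mRNA-binding protein, 4.39-fold (limma adjusted p = 0.00701 and 0.0109). Their H minus G median was 0.40, and the mean of pair H was above that of pair G for 12 of 14, against 7 of 7 Nlrp members and 4787 of all 16694 probes. Of the oocyte transcription factors, Nobox and Lhx8 were tested and not called, and Figla and Taf4b, well above background on 4 and 3 arrays, were not tested. Uhrf1, the DNA methylation cofactor that NLRP14 is reported to protect, was 3.38-fold lower in experiment 2 (limma adjusted p = 0.00211), while Nlrp14 itself was not called there. Slc8b1, the mitochondrial calcium exchanger, was well above background on 1 array.

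The immune relatives of the family were mostly dim. Of 15 other NLR genes on the array 8 were tested. Nlrp3 and Naip6 were well above background on 0 arrays. Nod1, a sensor of bacterial cell walls, was 5.12-fold lower in experiment 2 (limma adjusted p = 4.29e-05), at -4.06 ± 0.09 near the floor, against -1.71 ± 0.32 in experiment 1 (SD, n = 6 each). Naip1 was the 1 gene called higher in experiment 2, at -2.92 ± 0.58, while all cells of experiment 1 lay at the floor (limma adjusted p = 0.0301). Nlrp10 was called between embryos (limma adjusted p = 0.0430) and also lay at the floor in all of experiment 1. In experiment 2 it averaged -3.70 ± 0.66 (SD, n = 6), near the floor, and its H minus G difference was 0 ± 0.14 (SE). Of 8 inflammasome components 4 were tested, Pycard, Casp1, Casp4 and Gsdmd, and 0 were called between embryos, cell numbers or experiments. Pycard, the inflammasome adaptor, differed by -1.32 ± 0.49 (SE; limma adjusted p = 0.144).

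The genes whose profile was most like that of Nlrp14 were sought among 4772 genes measured on all 12 arrays. They were Ecpas (r = 0.95, rho 0.95), an adaptor of the proteasome, Vdac3 (r = 0.88, rho 0.90), a channel of the outer mitochondrial membrane, and Xlr3c (r = 0.88, rho 0.84), over the 12 cells centred within experiments. These values order the genes and carry no test. Ecpas itself was not called between embryos (limma adjusted p = 0.0915). Among the members, Nlrp4a was nearest to Nlrp14 at r = 0.67. No likeness was computed for Nlrp5, whose probe was not tested.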

How the data were processed

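Per the labels, polyadenylated RNA from single cells went through 2 rounds of amplification before hybridisation to an Agilent whole mouse genome array. Per the file headers, the deposited scanner files hold intensity values from Agilent Feature Extraction 9.1.3.1. The labels name Cy3 for all cells, but the arrays of experiment 1 carried their signal in Cy5, which was used there. The authors' deposited value table, also intensity, was compared with this signal for the 5858 probes used in the scaling. For 99.4 to 100% of these per array it matched the signal divided by 1 constant per array, to within 2%. Dimmer probes were not compared. On some arrays, such as cell 1 of pair I of experiment 1, the median of the value table equals its minimum (0.010). Many dim values there thus share 1 lowest value.

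Outlier spots were dropped, spots of a probe averaged, and processed signals divided by the array's 75th percentile over 5858 probes, those well above background everywhere. A common floor of 0.0574 replaced smaller values before log2; it is the largest of the 12 minima among well-above-background signals. The 16694 probes that were well above background in 6 or more cells entered limma 3.58.1 in R 4.3.3: embryo as a factor over contrasts within experiments, cell number and its change between experiments with embryo as a block, and experiments compared with cells of an embryo correlated (consensus correlation 0.35). A gene was represented by its tested probe with the highest mean. The number of arrays limits the precision, and p-values measure the spread between cells. The code was tested on simulated data. With so few cells, a count of 0 called does not show that a difference is absent.

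All 10 members, the genes of the complex, NLR and inflammasome lists, up to 4 genes of each other list per contrast and the 3 genes most like Nlrp14 could be named. The members and lists were chosen with earlier results of these data known.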

Additional observations from a re-analysis of the deposited data

How the results depend on the processing

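The count of members called between embryos, 1 in the reported setting, was the count that moved. It was 4 of 7 with normexp background correction (6698 of all 16694 probes called, against 234 in the reported setting). With experiment 2 alone it was 3 of 7 (784 of 16694 probes). A filter of 3 arrays changed the numbers tested and gave 2 of 9 members and 3742 of 26447 probes (14.1%). The count was 0 of 7 with quantile normalization (134 probes), the lower common floor (2 probes) and a floor for each array (4356 probes). Experiment 1 alone (0 probes) and the fit within the slides that held 2 embryos (14 probes) also gave 0 of 7. The filter of 12 arrays gave 0 of 5 members and 30 of 5858 probes (0.51%). Leaving out 1 cell at a time gave 0 to 2, and 0 in 7 of 12 cases, while 0 to 23.2% of all probes were called; the 2 members came with 3875 probes, without cell 1 of pair L of experiment 1, and without either cell of pair H 0 probes were called. With scaling over all probes the count stayed 1 (333 probes), but the member differed. Nlrp4c was called there (limma adjusted p = 0.0175) and Nlrp14 was not (0.113). Nlrp14 and Nlrp4a were called in 10 and 4 of 25 alternatives. The causes were not tested.

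The cell numbers are not tied to each other across embryos in the labels. With cell number as a replicate block, 0 members and 0 of all 16694 probes were called between embryos, and the limma adjusted p of Nlrp14 was 0.0852. Counts for cell number, for its change between experiments and for experiment were 0 members under each alternative run, also with no replicate block for cell number and, for experiment, with the slide as a random block. The count of all probes called between experiments, 1353, ranged from 173 with scaling over all probes to 1830 with quantile normalization. Signal limits the dim members: Nlrp4c, Nlrp5 and Nlrp9b sat at or near the floor, and values there have no order.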
